A study of Mus musculus with 2 samples.

Results

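The genes of the synapsins, of SV2 and of the tetraspan proteins of the synaptic vesicle membrane were followed in the left cerebral cortex of young mice. The 10 genes were taken by symbol out of 55536 genes in the annotation, and the set was drawn up with earlier results of these data known. They are Syn1, Syn2 and Syn3 (synapsins), Syp and Synpr (physins), Syngr1 and Syngr3 (synaptogyrins), and Sv2a, Sv2b and Sv2c (SV2 proteins). Total RNA sequencing had been carried out on 2 libraries, numbered as biological replicates 1 and 2 of a single group. The mice were males of strain B6CASTF1/J, an F1 hybrid of C57BL/6 and CAST, aged 14 days, with no treatment named, and each library began from 300 ng of RNA with ERCC spike-ins. The labels give both libraries 1 donor entry and mention 3 males without stating whether tissue was pooled, so separate animals are not established and the spread between the libraries may be technical. There was no second condition, so levels, their order, the transcripts behind them and the spread between the libraries are described, without p-values.

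Synaptic vesicles store neurotransmitter at nerve terminals and fuse with the plasma membrane to release it. Synapsins are phosphoproteins on the outer vesicle surface that hold vesicles in clusters and let them go when kinases act on them. Synaptophysin, synaptoporin and the synaptogyrins cross the vesicle membrane, while the SV2 proteins are transporter-like glycoproteins that act on the readiness of vesicles for release and on synaptotagmin. Synapses form rapidly in the cortex of young mice, and these proteins are in common use as markers of presynaptic terminals.

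The forms of a gene that the annotation separates are shown first, because the shares given later rest on these stretches. Synapsin 1 is made in a long a form (Syn1-201, 706 codons) and a shorter b form (Syn1-202, 670 codons). Both share their first 1985 coding bases and part at the last splice junction, where the a form keeps 38 bases that the b form skips, so the reading frame and the end of the protein differ. The sequences below run from 30 coding bases before that junction, on the minus strand of chromosome X in mm10 (GENCODE M21), and capitals mark the bases kept only in the a form.
Syn1a junction: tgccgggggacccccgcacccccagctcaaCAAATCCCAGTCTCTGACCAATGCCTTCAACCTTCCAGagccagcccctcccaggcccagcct
Syn1b junction: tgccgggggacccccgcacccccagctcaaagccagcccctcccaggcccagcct

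Synapsin 2 has an a form of 586 codons (Syn2-201) and a b form of 479 codons, which is annotated on both Syn2-202 and Syn2-203. Their first 1372 coding bases are shared, after which the a form has 386 coding bases of its own and the b form 65. The stretches below begin 30 coding bases before that point on the plus strand of chromosome 6 (mm10, GENCODE M21), and capitals mark the bases after the forms part.
Syn2a junction: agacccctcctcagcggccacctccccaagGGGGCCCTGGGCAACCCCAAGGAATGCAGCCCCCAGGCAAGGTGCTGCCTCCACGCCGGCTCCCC
Syn2b junction: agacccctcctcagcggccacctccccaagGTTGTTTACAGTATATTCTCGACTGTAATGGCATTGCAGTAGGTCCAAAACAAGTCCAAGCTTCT

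Synaptoporin is annotated with alternative starts 169249 bases apart on chromosome 14, which give proteins that differ in their first residues. Synpr-201 starts at 13284780 and has 285 codons, and Synpr-202 starts at 13454029 and has 265 codons. The first coding bases of each are shown from the plus strand of mm10 (GENCODE M21). Capitals mark the 84 and 24 bases that each has and the other lacks, and lower case the start of the shared part. Other Synpr transcripts were not compared.
Synpr-201 start: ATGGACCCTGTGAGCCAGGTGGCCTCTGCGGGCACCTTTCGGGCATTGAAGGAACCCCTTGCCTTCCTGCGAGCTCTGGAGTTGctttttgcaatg
Synpr-202 start: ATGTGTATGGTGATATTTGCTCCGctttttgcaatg

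The libraries held 28263266 (replicate 1) and 30862848 (replicate 2) expected counts, which are estimated reads per gene. Between them chi-square per degree of freedom was 11.97 over 17786 genes, so they were not 1 library deposited again. Levels are given as TPM (transcript abundance scaled to a common total), which divide reads by transcript length, and as mean ± SD over the 2 libraries. A second transcript table, made by the authors directly from the reads, was used beside the gene table and the transcript table that goes with it, which are called the first table. The median ratio of TPM in this second table to the first was 1.49 over the members and 1.55 over detected protein-coding genes. The cortical label was set beside markers. All 6 excitatory cortical, all 4 upper-layer and all 6 deep-layer markers were at 1 TPM or more in each library, and 0 of 4 cerebellar markers were. Markers of other nearby regions were also present at that level, with all 11 of striatal projection neurons, 4 of 5 thalamic and 4 of 5 hippocampal ones. Since 58.7% of nuclear protein-coding genes reached that level too, presence at it cannot tell cortex from these regions. The thalamic markers summed to 46.3 TPM in replicate 1 and 43.6 TPM in replicate 2, and the hippocampal ones to 14.2 and 14.6 TPM.

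All 10 members were at 1 TPM or more in each library, where 58.7% of 22015 nuclear protein-coding genes were. Their median level was 180 TPM, against 16.0 TPM over the 12931 detected protein-coding genes, and together they took 0.5% of protein-coding TPM in replicate 1 and 0.507% in replicate 2. Syp stood far above the others, and Sv2c and Syn3 lay near the median of detected genes. The order by mean TPM was Syp, Syn1, Syn2, Syngr1, Sv2a, Sv2b, Syngr3, Synpr, Sv2c and Syn3. Genes were called separated where the log2 ratio of TPM had the same sign in both libraries and its mean exceeded its SD, and 43 of 45 pairs were. This is a description and not a test, because with 2 libraries genes of equal level can also pass it. The SD covers only the spread between the libraries. Of the 43 pairs, 41 stayed separated the same way in the second table and 38 in counts not divided by length. The neighbours Syn2 and Syngr1 were not separated (log2 ratio 0.01 ± 0.11), nor were Sv2c and Syn3 (0.06 ± 0.51). In bulk tissue, a lower level in fewer cells of a type cannot be told apart from less RNA per cell.

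**Figure D1:**
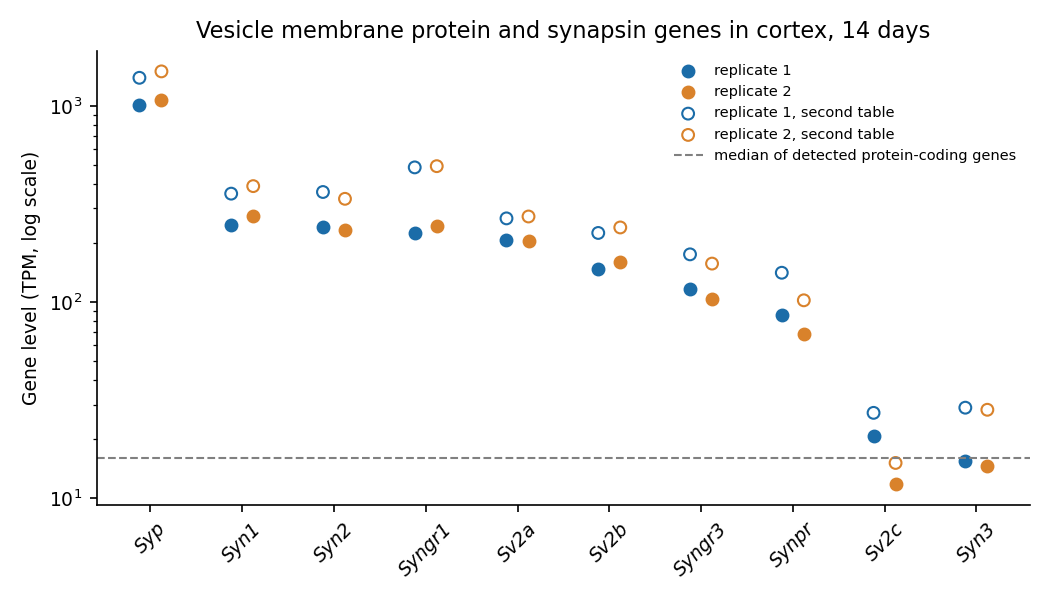
Level of each member in TPM (log axis) in replicates 1 and 2, with filled points from the gene table and open points from the second table; the dashed line is the median of detected protein-coding genes, 16.0 TPM. Syp lies near 1042 TPM, and Sv2c and Syn3 lie at the line in the gene table.

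Among the synapsins, Syn1 and Syn2 were abundant and close in level, and Syn3 was far lower. Syn1 (chromosome X, 20860511 to 20921004, minus strand, mm10) had 248 TPM in replicate 1 and 273 TPM in replicate 2, a mean of 260 ± 18.0 and rank 216 of the detected protein-coding genes. Syn2 (chromosome 6, 115134902 to 115282006, plus strand) had 240 and 232 TPM, a mean of 236 ± 5.78 and rank 247. Replicate 2 was the higher library for Syn1 and replicate 1 for Syn2. The log2 ratio of Syn1 over Syn2 was 0.14 ± 0.13 and positive in both libraries. In the second table it was -0.03 in replicate 1 and 0.21 in replicate 2, so the order of this pair was not separated there. Nor was it in counts not divided by length, with a log2 ratio of 0.02 ± 0.14.

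Syn3, a synapsin known in rodent brain for early expression in development and later restriction to few regions, spans 444 kb on chromosome 10 (86055125 to 86498896, minus strand). It had 15.5 TPM in replicate 1 and 14.6 TPM in replicate 2, a mean of 15.0 ± 0.615 and rank 6706, from 767 and 781 counts. The libraries were close to each other for this gene. The log2 ratio of Syn1 over Syn3 was 4.1 ± 0.16, or 17.2-fold, and that of Syn2 over Syn3 was 3.96 ± 0.02, or 15.6-fold. In the second table these log2 ratios were 3.7 ± 0.12 and 3.61 ± 0.05.

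Both forms of synapsin 1 were present in amounts that depended on the table. Syn1a (Syn1-201) took 48.1% of the gene's TPM in replicate 1 and 48.2% in replicate 2, and Syn1b (Syn1-202) took 51.9% and 51.8%. The libraries were close to each other here, yet in the second table Syn1a had 29.8% and 29.6% and Syn1b 70.2% and 70.4%. The b form was the higher in both tables, and the distance between the tables was many times the SD between the libraries (0.0707 percentage points in the first table). The forms are told apart chiefly by the 38 bases printed in capitals above and by their annotated ends, Syn1-201 being 3209 nt and Syn1-202 3261 nt long.

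Synapsin 2 was mostly of the b form in both tables. Over its complete coding transcripts, Syn2b took 81.7% of TPM in replicate 1 and 82.4% in replicate 2 (82.1 ± 0.507%), and 79.4 ± 1.15% in the second table. Which transcript carried that form was not stable. Syn2-203 held 65.7 ± 2.84% of the gene and Syn2-202 was listed at 0 in the first table, whereas Syn2-202 held 52.6 ± 0.0689% and Syn2-203 held 0.686 ± 0.863% in the second. These transcripts have the same coding sequence. A further 18.6 ± 4.16% lay in Syn2-206, a transcript annotated as non-coding, with 15.7% in replicate 1 and 21.5% in replicate 2. In the second table Syn2-206 held more, 26.8% and 31.1% (28.9 ± 3.08%).

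Among its coding transcripts, synapsin 3 was carried by Syn3-201 (579 codons), at 93.9 ± 0.0216% of its coding TPM in the first table and 92.3 ± 0.201% in the second, with the remainder in Syn3-202 (243 codons). Its share of the whole gene depended on the table, at 81.9 ± 0.566% in the first and 56.4 ± 2.49% in the second. The non-coding Syn3-204 and Syn3-205 were listed at 0 in the first table and held 14.5 ± 0.0751% and 14.5 ± 2.73% in the second.

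**Figure D2:**
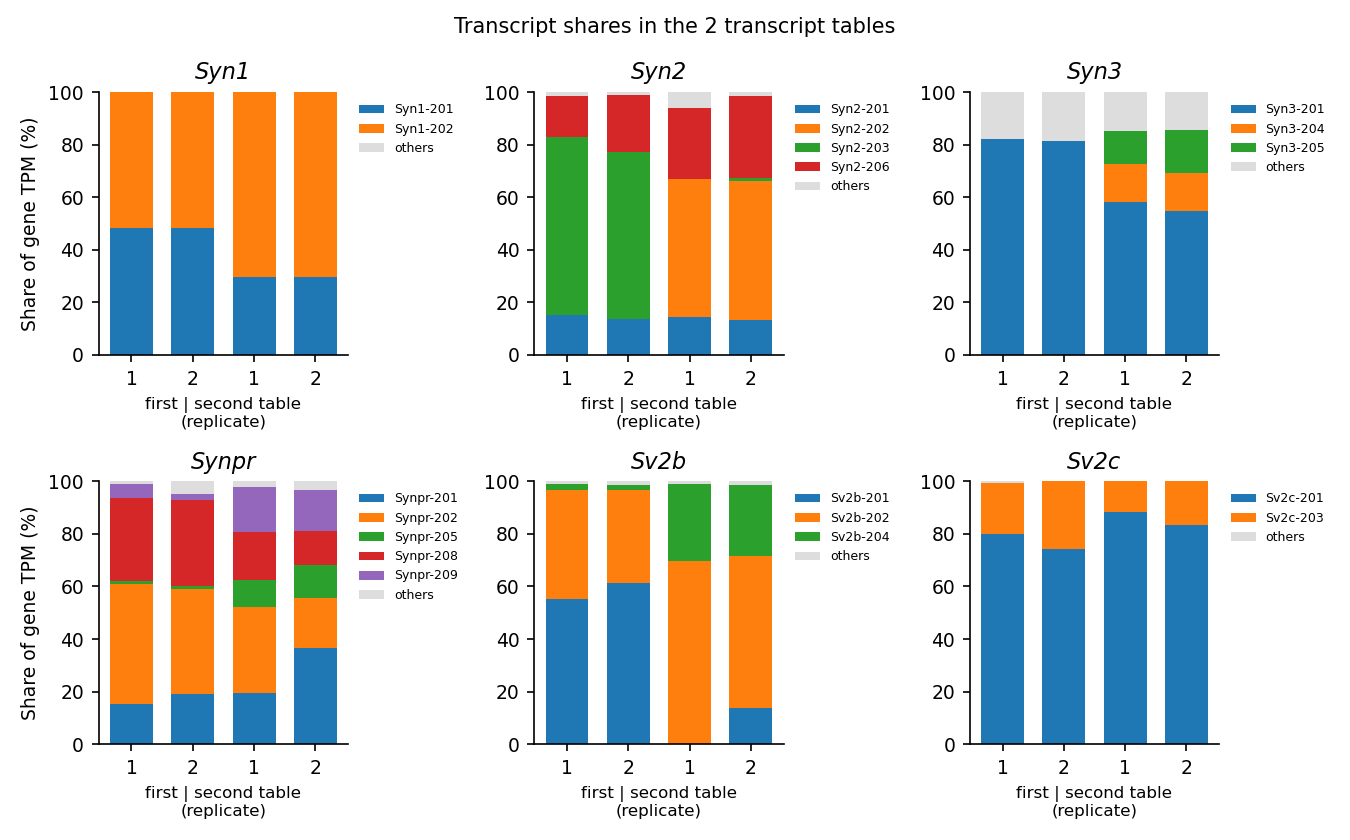
Share of each gene's TPM in its transcripts (percent, stacked bars), for replicates 1 and 2 in the first table (left pair of bars) and in the second table (right pair); transcripts under 10 percent are pooled as others. Syn1-202 takes 51.8% in the first table and 70.3% in the second, and for Syn2, Synpr and Sv2b the highest transcript differs between tables.

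All 3 synapsin genes hold a gene for a tissue inhibitor of metalloproteinases in an intron, on the opposite strand. Timp1, inside Syn1, was at 0.43 and 0.54 TPM in replicates 1 and 2. Timp4, inside Syn2, was at 8.53 and 8.34 TPM, and Timp3, inside Syn3, was at 25.9 and 23.4 TPM. Timp3 therefore exceeded its host Syn3 in both libraries and the other 2 were below theirs. Annotated exons of Timp3 and Timp4 overlap exons of Syn3 and Syn2 transcripts, and the sources used here do not say whether strand was used in counting, so reads in those stretches cannot be assigned with certainty.

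The promoter window of Syn1 is shown because it was the only one among the members with a match to a cyclic AMP response element (CRE) or to the core of the RE1 element, the site of the neuronal gene repressor REST. It covers 250 bases before and 50 bases after the RefSeq start (GRCm38.p6, chrX:20920869-20921168, minus strand), and capitals mark the RE1 core match and then the CRE.
Syn1 promoter: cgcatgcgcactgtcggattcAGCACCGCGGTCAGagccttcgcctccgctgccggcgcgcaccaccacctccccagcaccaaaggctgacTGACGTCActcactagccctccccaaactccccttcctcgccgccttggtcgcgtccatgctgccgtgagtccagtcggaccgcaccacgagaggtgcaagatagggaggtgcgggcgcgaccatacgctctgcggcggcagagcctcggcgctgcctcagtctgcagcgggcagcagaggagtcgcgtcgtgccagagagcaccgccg

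The CRE, TGACGTCA, begins at base 92 of this window and reads the same on both strands; 1.79% of 32851 promoter windows in the RefSeq table hold it. The RE1 core was searched on both strands, and it does not overlap the CRE here. No member window held it exactly, and 0.0517% of all windows did. The Syn1 match begins at base 22 and carries the substitution A11T, counted from 1 at the 5′ end of the searched core; 0.353% of windows hold the core with at most 1 substitution. The window also has 33 CG dinucleotides, where the median window has 7. The table holds 13 windows for 8 members and none for Syn3 or Syngr3. The GC box GGGCGG, searched on both strands, lay in 7 of the 13 member windows and in 35.7% of all windows, and TATAAA lay in 2, both of Sv2b, and in 13.6% of all. These are letter matches only, and no binding was measured.

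Syp encodes synaptophysin, the abundant tetraspan vesicle protein that binds synaptobrevin 2 (Vamp2). Syp (chromosome X, 7638471 to 7653256, plus strand) had 1016 TPM in replicate 1 and 1068 TPM in replicate 2, a mean of 1042 ± 36.9, from 33016 and 37603 counts. It ranked 6 among detected protein-coding genes and was the highest member in both libraries and both tables. The log2 ratio of Syp over the next gene, Syn1, was 2.04 in replicate 1 and 1.97 in replicate 2. Vamp2 itself was at 535 and 579 TPM.

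A large share of the Syp level came from short transcripts. The complete coding transcript, Syp-201 (314 codons), took 64.2 ± 0.813% of the gene's TPM but 92.9 ± 0.239% of its expected counts. Syp-206, a non-coding transcript of 433 nt, took 33.4 ± 0.82% of TPM from 6.48 ± 0.224% of counts, and was listed at 0 in both libraries of the second table. There, 26.7 ± 1.69% of TPM lay in Syp-202, an incomplete model of 494 nt that had 0.14 ± 0.0566% in the first. Syp-201 alone stood at 647 TPM in replicate 1 and 692 in replicate 2, which still exceeded every other member.

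Synpr encodes synaptoporin, a close relative of synaptophysin known in rodents from a narrower set of neurons, among them hippocampal mossy fibre terminals and interneurons. It spans 332 kb on chromosome 14 (13284780 to 13616340, plus strand). Synpr had 85.9 TPM in replicate 1 and 68.6 TPM in replicate 2, a mean of 77.3 ± 12.2 and rank 1314, from 2884 and 2377 counts. Replicate 1 was the higher library. The log2 ratio of Syp over Synpr was 3.76 ± 0.28, or 13.5-fold.

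Transcripts from both Synpr starts were quantified, and their balance differed between tables and libraries. From the downstream start, Synpr-202 stood at 39.4 TPM in replicate 1 and 27.4 in replicate 2, and from the upstream start Synpr-201 stood at 12.9 and 13.1 TPM. In the first table Synpr-202 was thus the higher form in both libraries and was lower in replicate 2, while Synpr-201 was alike in both. In the second table Synpr-202 had 46.4 and 19.6 TPM and Synpr-201 had 27.6 and 37.2 TPM, so the higher form was Synpr-202 in replicate 1 and Synpr-201 in replicate 2. The non-coding Synpr-208 took a further 32.2 ± 0.955% of the gene's TPM in the first table and 15.6 ± 3.86% in the second.

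The windows at the Synpr starts differ in base composition, and are shown with CG dinucleotides in capitals (RefSeq, GRCm38.p6, plus strand). The upstream window lies at chr14:13284530-13284829, and the downstream one, at chr14:13453708-13454007, ends before the GENCODE start of Synpr-202.
Synpr upstream promoter: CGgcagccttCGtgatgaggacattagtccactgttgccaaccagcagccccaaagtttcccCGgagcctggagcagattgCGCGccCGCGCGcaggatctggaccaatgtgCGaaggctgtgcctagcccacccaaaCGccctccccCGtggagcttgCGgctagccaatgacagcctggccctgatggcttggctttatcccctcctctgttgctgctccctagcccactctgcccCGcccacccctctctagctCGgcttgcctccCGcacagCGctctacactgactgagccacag
Synpr downstream promoter: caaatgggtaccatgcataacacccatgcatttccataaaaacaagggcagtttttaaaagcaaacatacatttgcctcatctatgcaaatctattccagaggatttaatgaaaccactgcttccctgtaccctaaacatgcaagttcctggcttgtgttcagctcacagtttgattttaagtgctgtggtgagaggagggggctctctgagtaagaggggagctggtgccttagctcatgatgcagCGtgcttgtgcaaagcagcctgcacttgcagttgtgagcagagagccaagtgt

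The upstream window holds 16 CG dinucleotides, an observed over expected ratio of 0.55, and the downstream window holds 1, a ratio of 0.06. Over all 32851 windows the median ratio was 0.38, and 35.8% of windows exceeded 0.6, as did 5 of the 13 member windows. The highest member ratios were 0.97 for Syngr1 and 0.96 for Syn1. At Sv2b, the window at the start of Sv2b-202 had a ratio of 0.52 and that at the start of Sv2b-204 had 0 CG dinucleotides.

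The synaptogyrins are tetraspan vesicle proteins related to synaptophysin. Syngr1 (chromosome 15, 80091334 to 80119501, plus strand) had 226 TPM in replicate 1 and 243 TPM in replicate 2, a mean of 234 ± 12.5 and rank 249. Syngr3, a synaptogyrin found mainly in brain (chromosome 17, 24685092 to 24689955, minus strand), had 117 and 104 TPM, a mean of 111 ± 9.38 and rank 802. Syngr1 was higher than Syngr3 in both libraries, with a log2 ratio of 1.08 ± 0.20 or 2.12-fold. In counts not divided by length this log2 ratio was 2.14 ± 0.20.

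The tables parted most on Syngr1. The second table put it at 486 TPM in replicate 1 and 493 in replicate 2, above Syn1, Syn2 and Sv2a, and its log2 ratio over Syngr3 was then 1.56 ± 0.12. There 27.7 ± 1.55% of its TPM lay in Syngr1-204, an incomplete model of 479 nt that had 0.48 ± 0.198% in the first. Its complete coding forms, Syngr1-201 (234 codons) and Syngr1-202 (191 codons), took 99.0 ± 0.273% of TPM in the first table and 64.1 ± 2.66% in the second. For Syngr3, Syngr3-201 (229 codons) took 100% in the first table and 68.6 ± 2.67% in the second, the rest being the non-coding Syngr3-202. Of the other relatives, Syngr2, a synaptogyrin of non-neuronal cells, was at 7.09 and 5.94 TPM, Syngr4 at 0.23 and 0.24 TPM, the synaptophysin-like Sypl at 14.9 and 14.4 TPM, and Sypl2 at 0.35 and 0.49 TPM. Of these relatives, Syngr2 and Sypl were above 1 TPM in each library and the other 2 were below it.

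**Figure D3:**
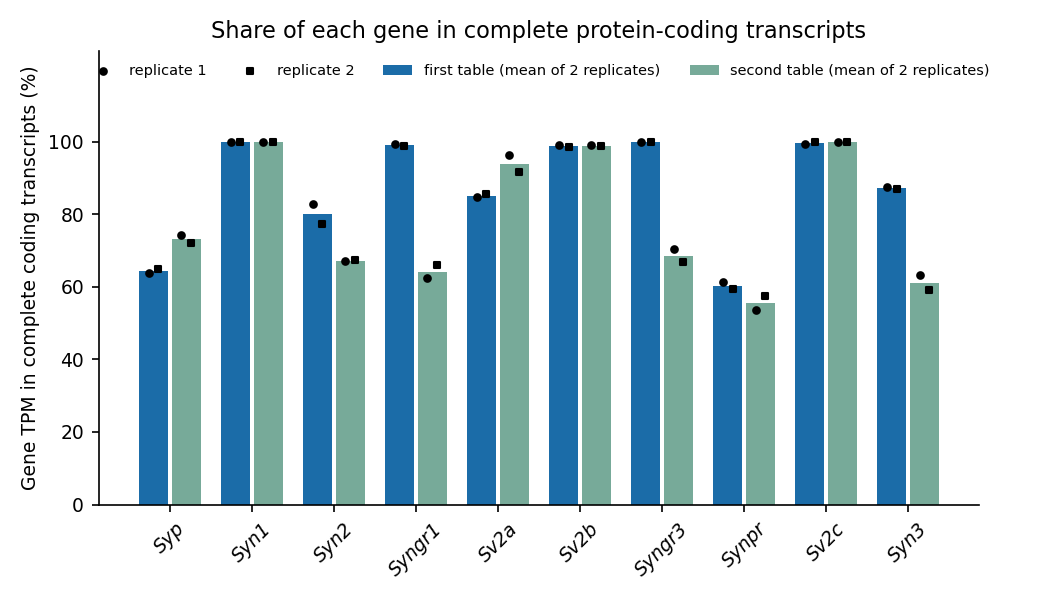
Share of each gene's TPM in complete protein-coding transcripts (percent), as the mean of the 2 libraries (bars) with each library as a point, in the first and second tables. Syn1, Sv2b and Sv2c lie at 98.9% or more in both tables, while Syngr1 has 99.0% in the first and 64.1% in the second.

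SV2A is the binding site of the antiseizure drug levetiracetam, and SV2 proteins serve as receptors for botulinum neurotoxin A. Sv2a (chromosome 3, 96181151 to 96195521, plus strand) had 207 TPM in replicate 1 and 204 TPM in replicate 2, a mean of 206 ± 2.53 and rank 317. Sv2b (chromosome 7, 75114894 to 75309262, minus strand), a form strong in forebrain excitatory neurons, had 147 and 160 TPM, a mean of 154 ± 8.9 and rank 516. Sv2a was the higher in both libraries, with a log2 ratio of 0.42 ± 0.10 over Sv2b, or 1.34-fold, and 0.22 ± 0.05 in the second table. When only complete coding transcripts of the first table were summed, this log2 ratio was 0.2 ± 0.09. Sv2a-203, a non-coding transcript of 432 nt, took 12.4 ± 0.325% of Sv2a TPM there from 1.13 ± 0.037% of the gene's expected counts. Before division by length the order was the other way, with 508 and 493 CPM (counts scaled to library size) for Sv2a and 520 and 550 for Sv2b. Sv2a-201 is 4334 nt long and Sv2b-201 is 5307 nt long.

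Sv2c (chromosome 13, 95954594 to 96132577, minus strand) is the SV2 gene known for its expression in the basal ganglia of rodents. It had 20.7 TPM in replicate 1 and 11.8 TPM in replicate 2, a mean of 16.2 ± 6.31 and rank 6384, from 2987 and 1731 counts. Its level was well below its relatives in both libraries. The log2 ratio of Sv2a over Sv2c was 3.71 ± 0.55, or 13.1-fold, and that of Sv2b over Sv2c was 3.29 ± 0.65, or 9.77-fold. In counts not divided by length the log2 ratio of Sv2a over Sv2c was 2.7 ± 0.61, and that of Sv2b over Sv2c was 2.79 ± 0.70.

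The single coding form of Sv2b had several starts. Sv2b-201, Sv2b-202 and Sv2b-204 share 1 coding sequence of 683 codons, and together took 98.9 ± 0.297% of the gene's TPM in the first table and 98.9 ± 0.27% in the second. Their division was 58.3 ± 4.14%, 38.5 ± 4.16% and 2.09 ± 0.262% in the first table and 7.03 ± 9.69%, 63.5 ± 8.45% and 28.3 ± 1.51% in the second, so the tables gave different divisions. Sv2a had 1 complete coding transcript, Sv2a-201 (742 codons), with 85.1 ± 0.643% of TPM in the first table and 93.9 ± 3.23% in the second. For Sv2c, Sv2c-201 (727 codons) stood at 16.5 TPM in replicate 1 and 8.78 in replicate 2, and Sv2c-203 (667 codons) at 4.06 and 3.01 TPM. Both forms of Sv2c were higher in replicate 1. Over all members, the tables had the same leading transcript for 7 genes and another for 3, which were Syn2, Synpr and Sv2b.

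The spread between the libraries was measured as the log2 difference in normalised CPM, replicate 1 minus replicate 2. Its median size was 0.11 over the members and 0.14 over all 18965 genes tested, and 0.08 over 7532 protein-coding genes that had 500 counts or more in each library, as all 10 members had. There were 6 members higher in replicate 1 and 4 higher in replicate 2, and 50.1% of all genes were higher in replicate 1. Past 0.32 on this scale lay 2 members, Sv2c and Synpr, where 24.6% of all genes tested and 6.49% of those with 500 counts or more did. Both were higher in replicate 1. At that size 13.9% of all genes were higher in replicate 1 and 10.7% in replicate 2. Past 1.5-fold lay 1 member, Sv2c, where 11.0% of all genes and 1.37% of the better covered ones did. Of all genes, 6.61% were that much higher in replicate 1 and 4.35% in replicate 2.

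Sv2c differed by 0.89 on the log2 scale, or 1.85-fold, with a counting error of 0.0436, and 5.15% of all genes tested were as far apart. Synpr differed by 0.38, or 1.3-fold, with a counting error of 0.04. In the second table the log2 differences were 0.9 for Sv2c and 0.38 for Synpr. The other 8 members lay between -0.14 (Syn1) and 0.18 (Syngr3), and all were nearer to 0 than Synpr.

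Markers of other cells also differed between the libraries. All 11 genes listed as markers of striatal projection neurons were higher in replicate 1, with a summed level of 650 TPM in replicate 1 and 198 TPM in replicate 2, a median log2 difference of 1.9 and none at 0. Their defining genes included Drd1 (30.8 and 8.15 TPM), Adora2a (25.4 and 4.67 TPM) and Ppp1r1b (186 and 46.0 TPM). Markers of oligodendrocytes were higher in replicate 1 for 5 of 5 genes (summed level 998 and 650 TPM), those of deep layers for 4 of 6 (198 and 130 TPM) and those of inhibitory neurons for 5 of 7 (512 and 406 TPM). The deep-layer genes Fezf2 (log2 difference -0.17) and Etv1 (-0.19) were higher in replicate 2. So were the inhibitory genes Pvalb (-0.6) and Vip (-0.72). Whether these lists and the striatal one reflect separate cell classes here was not tested. Thalamic and hippocampal markers were each higher in replicate 1 for 4 of 5 genes, with median log2 differences of 0.49 and 0.09. Among them the thalamic Gbx2 (15 and 0 counts) and the hippocampal Spink8 (21 and 8) and Iyd (17 and 11) rested on few counts. The thalamic Ramp3 (-0.61) and the hippocampal Lct (-0.48) were higher in replicate 2, and the hippocampal sum was not higher in replicate 1 (14.2 and 14.6 TPM). In replicate 2 all 6 excitatory cortical markers (1588 and 1864 TPM in replicates 1 and 2), all 4 upper-layer markers (216 and 288 TPM) and all 4 blood markers (782 and 1203 TPM) were higher. The 6 pan-neuronal markers summed to 2641 and 2606 TPM, with a median difference of 0.01. The part of these cell classes in the differences of Sv2c and Synpr was not tested.

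**Figure D4:**
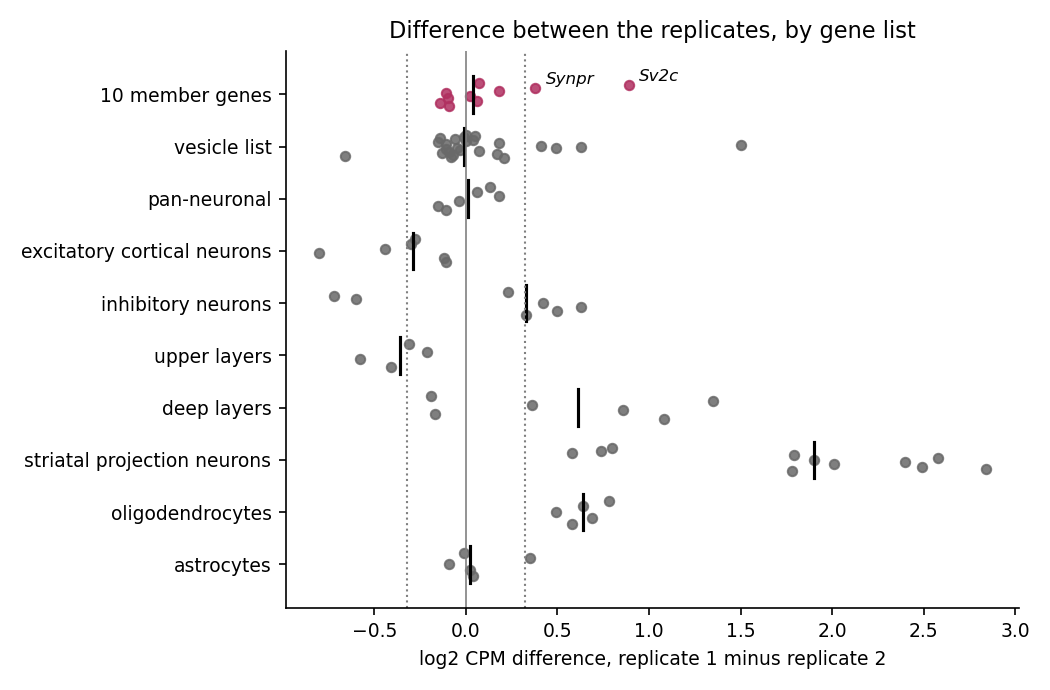
Log2 difference in CPM, replicate 1 minus replicate 2, for each gene (points) of the members, of the vesicle list and of marker lists, with black ticks at each median and dotted lines at 0.32 on either side of 0. Sv2c (0.89) and Synpr (0.38) stand to the right of the other members, and all 11 striatal markers lie to the right of 0.

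A list of 27 other vesicle genes (relatives of the members, transmitter transporters, fusion and proton pump proteins, and kinases that act on synapsins) gave the setting. Of these, 22 were at 1 TPM or more in each library, where 58.7% of nuclear protein-coding genes were, and the median level over the list was 47.0 TPM. The median difference between the libraries was -0.01 on the log2 scale over 25 genes tested. Of these 25 genes, 12 were higher in replicate 1, where 50.1% of all genes tested were. The glutamate transporter Slc17a7 was at 684 TPM in replicate 1 and 741 TPM in replicate 2, the calcium sensor Syt1 at 454 and 508 TPM, and the vesicle GTPase Rab3a at 420 and 422 TPM. The GABA transporter Slc32a1 was at 62.8 and 40.8 TPM and the acetylcholine transporter Slc18a3 at 2.73 and 0.94 TPM, both higher in replicate 1, with log2 differences of 0.63 and 1.5. Slc18a3 rested on 120 and 44 counts. Of the SV2-related genes, Svop was at 91.8 and 95.9 TPM and Svopl at 0.08 and 0.30 TPM, and among the vesicle membrane carriers Scamp5 was highest, at 186 and 188 TPM. Of kinases known to phosphorylate synapsin 1, Cdk5 was at 70.9 and 67.8 TPM and Camk1 at 44.5 and 49.5 TPM.

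For each member, the 2 protein-coding genes nearest in level were found as the smallest distance in log2(TPM + 0.1) over the 2 libraries, members left out. Such closeness is in level only. Next to Syp stood Hspa8 (1008 and 1073 TPM) and Calm2 (1004 and 1078 TPM), next to Syn1 Nell2 and Kif5a, and next to Syn2 Ywhab and Rpsa. Sv2a stood beside Atp1b2 and Atp6v1a, Sv2b beside Pacsin1, Syngr1 beside Cplx1 and Matr3, and Syngr3 beside Rasl10b and Rnf157. Synpr, the member second in its difference between libraries, stood beside Rasgrf1 (87.1 and 66.5 TPM) and Camk2d (89.3 and 68.3 TPM), and Sv2c beside Col25a1 and Doc2b (20.5 and 11.4 TPM). Syn3 stood beside Gltp and Ecd. All distances were at most 0.056.

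Other annotated genes overlap the members. Araf overlaps exons of Syn1 on the opposite strand at its end, only between 20860511 and 20860519, and had 98.7 TPM in replicate 1 and 90.1 TPM in replicate 2. The antisense gene Gm14703 overlaps exons of Syp and had 13 counts in each library, against 33016 and 37603 for Syp. Gm20075 lies inside Sv2c on the same strand without sharing an exon, and had 434 and 495 counts, so it was not higher in replicate 1 as Sv2c was. Rpl3 overlaps the start of Syngr1 on the opposite strand without sharing an exon. With strand use not stated, reads in stretches where exons overlap may have been divided in either direction.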

How the data were processed

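Both libraries were total RNA-seq of 1 group. Per the description files deposited with the samples, gene and first transcript tables came from alignments to the transcriptome (mm10, GENCODE M21), and a second transcript table came directly from the reads. The deposited expected counts (estimated counts in the second table) are reads per entry, not normalized. The deposited TPM are relative to all entries, spike-ins included, and the deposited FPKM are scaled by length and by assigned reads. The deposited percent values give each transcript's share of its gene's TPM. The deposited interval bounds of TPM, treated as scores, were not used. Column names are those RSEM and kallisto write; tools, versions and strand use were not given in the sources used here.

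From these, entries matched to GENCODE M21 (55536 of 81881) were kept, leaving out spike-ins and entries named only by number. Counts were rounded, and log2 CPM came from edgeR 4.0.16 (R 4.3.3) with TMM factors of 1.01 and 0.9903 and prior count 2. Genes below 10 counts in each library were left out. A gene was called detected at a TPM of 1 in both libraries. DESeq2 1.42.0 gave alternative size factors. Python 3.11.15, pandas 2.3.3, numpy 2.4.6, scipy 1.17.1, Biopython 1.88 and matplotlib 3.10.9 did the rest. Log2 ratios between genes used TPM + 0.1. With 2 libraries a two-sided exact sign-flip test cannot go below p = 0.5, so none was run. Counting errors cover counting only. The calculation of differences between libraries was checked on simulated counts with known changes, which is no test of the real differences. Sequences of promoters are from RefSeq (GRCm38.p6) and of coding stretches from mm10 with GENCODE M21; protein sequences were not used here. Alternatives were another table, scaling, prior count, pseudocount, filter, denominator, length and leaving out each library.

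Named genes are the members, the vesicle and marker lists where a value bears on a member, the genes nested in synapsin genes and the 2 genes nearest each member in level; overlapping genes were added after their values were seen. Some genes that this rule names are not reported here. The members and lists were chosen with earlier results of these data known.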

Additional observations from a re-analysis of the deposited data

How the results depend on the processing

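The median level of the members was 180 TPM, 251 in the second table, 385 when TPM was rescaled over nuclear protein-coding genes and 163 when only complete coding transcripts were summed, the last chosen after seeing the data; leaving out each library gave 177 to 182. The number of members past 0.32 between the libraries was 2, and 1 past 1.5-fold, and it was 2 with DESeq2 size factors, library totals or the second table. Reversed orders were Syn1 over Syngr1 (log2 ratio 0.15; -0.39 in the second table and -0.16 in CPM) and Sv2a over Sv2b (0.42; -0.1 in CPM, which are not divided by length); the cause of the first was not tested. Separated pairs numbered 43 of 45. Of these 43, 41 stayed separated in the same direction in the second table and 38 in CPM. Leaving out either library could not change the 43, because separation already required the same sign in both libraries. All 8 family ratios were separated. Of these, 7 stayed separated in the same direction in the second table and 6 in CPM, where Sv2a over Sv2b was separated the other way. Here too, leaving out a library could not change the 8. The 6 members higher in replicate 1 numbered 6 under each of 7 other scalings, priors, tables and filters, and the difference of Sv2c stayed between 0.88 and 0.91. Of single values under an alternative, 197 counted as unchanged, 74 moved more and 4 reversed. Unchanged meant a change of less than the spread, of under 0.1 on the log2 scale for differences between libraries, or of under 1 point for percentiles. Among the reversed, Sv2a over Sv2b was counted as an order and as a ratio. The 197 include all single values with a library left out. By arithmetic these always lie within the SD of 2 libraries, so they say nothing about stability. No paired analysis was possible because there is only 1 group. Syn3, at 767 and 781 counts, has the least depth, with a counting error of 0.0733 on the log2 scale.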

Other observations

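The members' coding sequences were more alike within families than between them. Over global alignments of the highest coding transcript of each gene in the first table, identity was 51.8% to 65.7% (median 60.0%) for 8 pairs within a family, with Sv2a and Sv2c the most alike. It was 44.0% to 47.6% for 4 pairs of a physin with a synaptogyrin, and 23.6% to 46.4% (median 31.7%) for 33 other pairs. Identity was taken over the whole alignment, gaps included, so a large difference in coding length alone keeps it low. Pairs from different families with long coding sequences, such as Syn1 with Sv2a (46.4%), reached the range of the physin and synaptogyrin pairs. These groups are therefore not ranked by relatedness.

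Gene span varied widely among the members. Syn3 spans 444 kb, Synpr 332 kb, Sv2b 194 kb and Sv2c 178 kb, while Syp spans 14.8 kb and Sv2a 14.4 kb, and 7 of 10 members exceeded the median span of detected protein-coding genes, 26.1 kb. Across the 10 genes Spearman's rho between span and mean TPM was -0.54, and 0.05 across detected protein-coding genes. These are correlations across genes of the same libraries, which are not independent replicates.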
